A study of Mus musculus with 3 samples.

Results

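Bglap, Bglap2 and Bglap3 are the 3 osteocalcin genes of the mouse. They were taken by symbol from the 125 genes counted in 3 libraries of targeted single-cell RNA sequencing, and all 3 had molecules in every library. Each was read by 1 of the 137 amplicons listed in the deposited counts. E18.5 EC holds endothelial cells (ECs) sorted from marrow of pooled embryos (E18.5, late in mouse gestation), by CD31 and endomucin in the series' description and by CD31 alone in the methods. The other two, E18.5 BM cells and, from adults, Adult BM cells, hold bone marrow (BM) cells of pooled embryos and of pooled adult mice after mature blood cells were depleted with lineage antibodies, and are also called fetal and adult marrow here. In the paper's general single-cell methods, fetal cells had that depletion alone. Adult cells went through further rounds, including removal of cells with c-Kit or CD45. Whether these rounds were used for the present panel is not stated, and any such difference cannot be told apart from age. All animals were wild type of strain C57/B6, and no group carried an allele or a treatment. Each group is 1 library, so differences between libraries have no replicate check and no p-value is given. Every interval is an exact 95% interval for counting error only, except that a quotient of 2 ratios with very large counts has a normal-approximation limit.

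Osteocalcin is a small protein rich in modified glutamate residues that binds the mineral of bone. It is made late in the life of osteoblasts, the cells that build bone, and by osteocytes embedded in it, and is a common marker of both. Bglap and Bglap2 are the bone-expressed copies, and Bglap3, also called osteocalcin-related protein, is the neighbouring copy, known from kidney and other tissues. Ptprc encodes CD45, carried by nearly all white blood cells, which are not the usual source of osteocalcin.

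The 3 genes lie side by side on the minus strand of chromosome 3. In the GENCODE vM21 annotation of GRCm38 (mm10), the transcripts named by the amplicons span 88383501 to 88384433 for Bglap, 88377736 to 88378699 for Bglap2 and 88368622 to 88369831 for Bglap3. Each has 4 exons, and each amplicon is named for the end of its transcript, which falls in a final exon of 267 bases. The coding part of that exon, 133 bases including the stop codon, is printed for each gene because it holds most of the bases that tell the paralogs apart. Capitals mark the 8 positions at which the 3 sequences are not all the same.
Bglap (exon 4, chr3:88383635-88383767, minus strand): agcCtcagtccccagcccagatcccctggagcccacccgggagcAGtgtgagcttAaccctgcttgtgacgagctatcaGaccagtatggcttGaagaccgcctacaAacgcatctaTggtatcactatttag
Bglap2 (exon 4, chr3:88377870-88378002, minus strand): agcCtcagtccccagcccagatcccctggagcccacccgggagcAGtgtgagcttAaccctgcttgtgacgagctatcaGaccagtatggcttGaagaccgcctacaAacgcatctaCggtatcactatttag
Bglap3 (exon 4, chr3:88368756-88368888, minus strand): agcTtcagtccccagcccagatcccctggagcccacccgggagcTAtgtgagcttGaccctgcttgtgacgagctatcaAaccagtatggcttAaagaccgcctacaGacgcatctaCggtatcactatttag

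Bglap and Bglap2 differed at 1 base of the 267 in the final exon, T118C, with the base of Bglap first and positions counted from 1 at the 5′ end of the printed stretch. Bglap3 differed from Bglap at 10 bases of that exon, 8 of them in the coding part. The final 149 bases were the same in Bglap and Bglap2, and the final 78 were the same in all 3 genes. A stretch of 75 bases, the length of 1 read, held a base that separates Bglap from Bglap2 in 75 of the 193 possible placements within the exon (38.9%), and a base that separates Bglap from Bglap3 in 189 of 193 (97.9%). Over the whole coding sequence of 288 bases the identity with Bglap was 98.6% for Bglap2 and 95.5% for Bglap3. Where the panel's primers sit in these exons is not given in the sources used here.

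Molecules were deposited under 3 counts. One is raw. In the next, recursive substitution error correction (RSEC) has merged molecular identifiers that differ by a sequencing error, and in the last, distribution-based error correction (DBEC) has also removed identifiers read much less often than the others of the same amplicon. Values are DBEC molecules unless another count is named. In the order E18.5 EC, fetal marrow and adult marrow, 4038, 12844 and 7939 barcodes passed the filter (at least 20 molecules and 5 genes), with 432750, 1836371 and 6303440 molecules and a median of 83, 97 and 242 molecules per cell. Cells with a molecule of Ptprc made up 25.4%, 81.7% and 21.0%, so blood cells were also present in the sorted EC library, in which Pecam1, the gene of CD31, stood at 1858 molecules per 10000. Between 38 and 113 barcodes were listed in both of any pair of libraries. Leaving out all shared barcodes gave 0.898, 4.01 and 808.4 molecules of Bglap per 10000 in the 3 libraries.

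Osteocalcin was scarce in both fetal libraries and among the most abundant RNAs of the adult one. E18.5 EC held 38 molecules of Bglap, 40 of Bglap2 and 20 of Bglap3, and together they were 0.0226% of its molecules. E18.5 BM cells held 727, 764 and 576, or 0.113% together. Adult BM cells held 512052, 556583 and 702703, or 28.1% of all molecules counted there.

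Scaled to 10000 panel molecules, Bglap stood at 0.878 (0.621 to 1.21) in E18.5 EC, 3.96 (3.68 to 4.26) in fetal marrow and 812.3 (810.1 to 814.6) in adult marrow. Bglap2 followed the same order with 0.924, 4.16 and 883.0. Bglap3 stood at 0.462 (0.282 to 0.714), 3.14 (2.89 to 3.40) and 1115 (1112 to 1117). The order of the libraries was therefore the same for each gene, with intervals that did not overlap. By level Bglap3 ranked 2, Bglap2 4 and Bglap 5 among the genes of Adult BM cells, and no better than 72 in either fetal library. A level over a whole library cannot tell fewer cells with osteocalcin from less of it per cell. It also depends on which cells were depleted, as does the share of cells with osteocalcin.

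**Figure D1:**
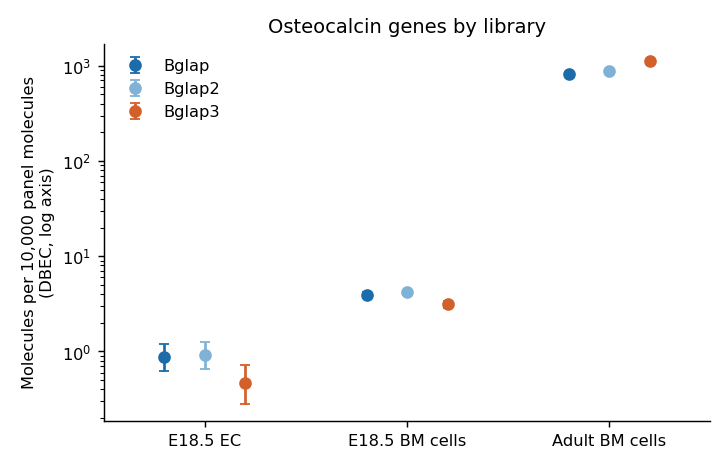
Molecules of each osteocalcin gene per 10000 panel molecules in the 3 libraries, on a log axis, where points are DBEC molecules and bars exact Poisson intervals (mostly smaller than the points in the adult library). All 3 genes rise from E18.5 EC to E18.5 BM cells to Adult BM cells. Bglap3 is the lowest of the 3 in both fetal libraries and, by DBEC, the highest in the adult one. By RSEC, not drawn, it is the lowest there too, at 693.0 against 977.6 for Bglap and 1011 for Bglap2.

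Over each whole library, Bglap and Bglap2 came in nearly equal numbers. The ratio of Bglap2 to Bglap molecules was 1.05 (0.658 to 1.69) in E18.5 EC, 1.05 (0.948 to 1.16) in fetal marrow and 1.09 (1.08 to 1.09) in adult marrow. By DBEC, Bglap3 did not keep such a constant ratio. It stood at 0.526 (0.290 to 0.928) of Bglap in E18.5 EC, 0.792 (0.709 to 0.885) in fetal marrow and 1.37 (1.37 to 1.38) in adult marrow. DBEC removed molecules of Bglap3 in E18.5 EC only, as given below. By RSEC the ratios were 0.597 (0.400 to 0.883), 0.522 (0.471 to 0.578) and 0.709 (0.707 to 0.711). The rise from E18.5 EC to fetal marrow was thus not seen by RSEC, and Bglap3 stayed below Bglap in every library. The primers of the 3 genes need not amplify alike, so a ratio is compared here between libraries or cells and not read as a ratio of RNA levels.

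The equality of Bglap and Bglap2 was also seen cell by cell, and in the fetal libraries it was closer than independent counting would give. Of 32 cells of E18.5 EC with exactly 1 molecule of Bglap, 30 had exactly 1 of Bglap2, although only 2 of the 4005 cells without Bglap had any. In E18.5 BM cells this was so in 62 of 70 cells, and in Adult BM cells in 301 of 976. By RSEC molecules it was so in 30 of 51, 85 of 219 and 38 of 230 cells. Across cells with either gene, the counts were equal in 88.6%, 67.2% and 13.9%, and by RSEC in 45.7%, 26.9% and 10.1%. If the molecules of a cell were drawn independently from the 2 genes, the spread of one gene given the sum would have a variance ratio of 1. It was 0.0100 in E18.5 EC, 0.0446 in fetal marrow and 0.685 in adult marrow, and 0.0533, 0.146 and 0.917 by RSEC. The match in fetal cells was thus weaker before DBEC, and still closer than independent counting.

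Such equality was rare on this panel. Among pairs of amplicons, equal counts in at least 50% of the cells with either were found in 0.131% of 3828 pairs in E18.5 EC, 0.05% of 5995 in fetal marrow and 0.015% of 6670 in adult marrow. The pair of Bglap and Bglap2 ranked 1, 3 and 8. The pairs beside it were both amplicons of Apc and both of Kitl, that is, amplicons of the same gene, with 88.5% and 85.9% in E18.5 EC and 76.9% and 74.9% in E18.5 BM cells. Bglap and Bglap3 followed at rank 4 in both fetal libraries, with 60.6% and 34.8%. The files give counts but no molecular identifiers, so whether 1 molecule was counted under more than 1 paralog was not tested.

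**Figure D2:**
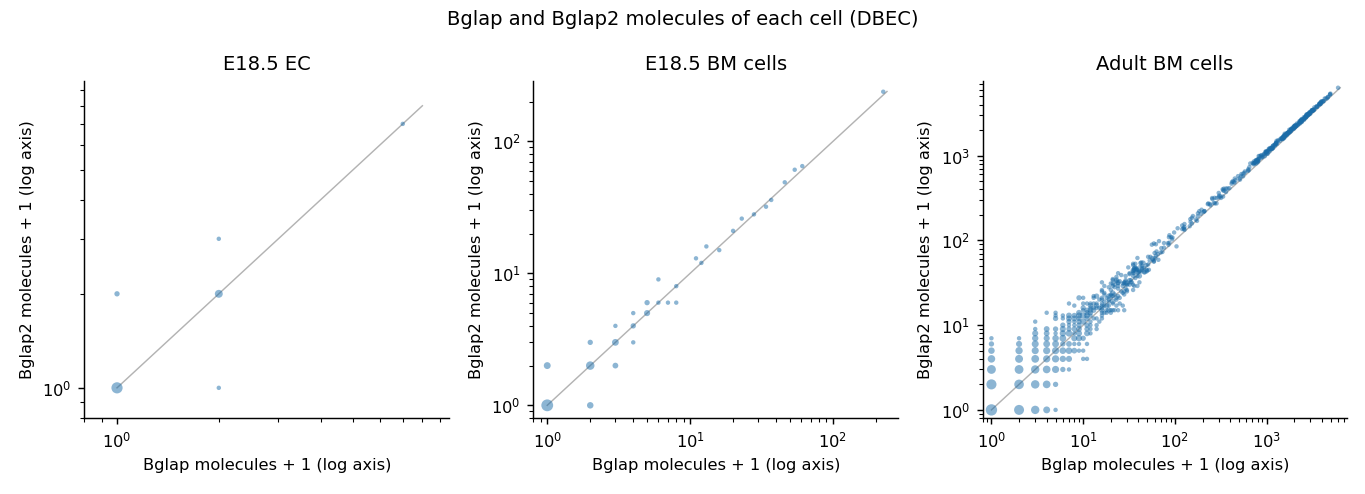
Bglap (x axis) and Bglap2 (y axis) molecules of every cell, each plus 1 on log axes, in the 3 libraries, where a larger point stands for more cells with that pair of counts and the grey line marks equal counts. In the fetal libraries cells lie close to the line, those with either gene mostly at 1 molecule of each in E18.5 EC. In the adult library counts reach 5993 and 6321. Adult cells scatter off the line at low counts, and counts were equal in 13.9% of those with either gene.

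Cells with at least 10 molecules of Bglap and Bglap2 together were called high, and Bglap3 was not used for this. There was 1 such cell in E18.5 EC, with 6 molecules of Bglap, 6 of Bglap2 and none of Bglap3. E18.5 BM cells had 18 (0.140%, 0.0831 to 0.221%) and Adult BM cells 678 (8.54%, 7.93 to 9.18%). None of the fetal high cells had a barcode shared with another library, and 655 adult ones remained without shared barcodes. The threshold cut through a continuous range, with 6 fetal marrow cells and 58 adult cells at 8 or 9 molecules just outside it and 2 and 37 at 10 or 11 just inside.

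In E18.5 BM cells the high cells, few as they were, held 82.1% of Bglap, 82.3% of Bglap2 and 77.3% of Bglap3. A single one had 224, 237 and 172 molecules of its 1918. The next had 60, 64 and 49, so the fetal level rested on a handful of cells. The high cells were deep, with a median of 1358.5 molecules against 97 in the other cells. In the whole library Bglap was seen in 110 cells, Bglap2 in 113 and Bglap3 in 125.

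In Adult BM cells most osteocalcin lay in an upper group of cells, which ran on from the rest without a clear break. In 245 cells (3.09%) Bglap and Bglap2 summed to 1000 or more, a limit set after the distribution was seen. These cells held 95.3% of all Bglap, 95.05% of Bglap2 and 84.7% of Bglap3. A cell of this kind had 486 to 5993 molecules of Bglap (median 1787), 520 to 6321 of Bglap2 (median 1923) and 730 to 5318 of Bglap3 (median 2360). Osteocalcin was a median of 92.3% of everything counted in such a cell, with a range from 36.2% to 97.6%, and the median left for all other genes was 496 molecules.

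The other 433 adult high cells, under 1000 molecules, were a mixture. They had a median of 18 molecules of Bglap, at a median depth of 2697. Osteocalcin of all 3 kinds was a median of 4.56% of the cell, with a wide range from 1.03% to 97.0%. All other genes together had a median of 2614 molecules. Of them 193 were in the chondrocyte-like cluster and 60 in an unnamed cluster led by Prg4 and Atp6v0d2, in which 1.76% of cells had Ptprc, against 1 and 0 of the 245. A further 69 of the 433 were in the cluster that also held 235 of the 245. The remaining 7261 adult cells had a median of 0 for Bglap and Bglap2, but of 5 for Bglap3.

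Clusters were made from all genes but the 3, so osteocalcin did not set their borders. In Adult BM cells, 1 of 17 clusters held 94.9% of Bglap. It had 312 cells, 304 of them high, and 235 of the 245 cells at 1000 or more, with 2753 molecules of Bglap per 10000, 2988 of Bglap2 and 3394 of Bglap3. Its leading genes were Dkk1, a secreted Wnt inhibitor, Car3, a carbonic anhydrase, Col22a1, a collagen, and Sgms2, a sphingomyelin synthase mutated in a human skeletal disease. Its leading genes held too few of the markers fixed for any cell type, so the cluster has no cell type name here. A second unnamed cluster, led by Mmp13, Mmp9, Spp1 and Postn, stood at 401.9 for Bglap, and the remaining clusters between 2.37 and 67.0.

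In E18.5 BM cells 1 of 12 clusters held 84.9% of Bglap, 617 of 727 molecules in 261 cells, or 29.3 per 10000. It was led by Col10a1, Panx3 and Mmp13, known from hypertrophic cartilage and bone-forming cells, and held 15 of the 18 high cells. The next cluster stood at 3.50 on 3 molecules. In E18.5 EC the highest of 9 clusters had 26 cells and 6 molecules of Bglap, all in the single high cell.

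Only 5 of the 14 genes on a list for bone-forming cells were among the genes listed in the deposited counts. They are Alpl (tissue-nonspecific alkaline phosphatase), Spp1 (osteopontin), Pth1r (the parathyroid hormone receptor), Mmp13 (a collagenase) and Postn (periostin). Levels were taken per 10000 molecules of genes other than osteocalcin. In the 18 high cells of E18.5 BM cells, 3 of the 5 were at least 2-fold above the other cells, where 10.9% of 101 genes were, and their median fold was 5.80 against 0.108 over all genes. Spp1 was 16.9-fold higher (16.6 to 17.2), Mmp13 13.0-fold (12.5 to 13.6) and Pth1r 5.80-fold (4.76 to 7.01). Alpl stood at 0.789 and Postn at 0.0208 of the level in other cells. Alpl was seen in 83.3% of the high cells and 23.8% of the others, and Postn in 44.4% and 21.9%. The high cells were deeper, which by itself raises such shares.

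In the 678 high cells of Adult BM cells, 2 of the 5 were at least 2-fold higher, where 19.4% of 108 genes were. They were Alpl at 5.05-fold and Pth1r at 4.65-fold. Spp1 stood at 0.744 and Postn at 0.837 of the level in the other cells. The median fold of the 5 was 0.837, against 0.323 over all genes. In the 245 cells at 1000 or more, 3 of the 5 were at least 2-fold higher, again with 19.4% of 108 genes called. Alpl was 4.64-fold higher (4.53 to 4.74), Pth1r 2.94-fold (2.87 to 3.02) and Spp1 2.16-fold (2.12 to 2.20), while Postn stood at 0.678 and Mmp13 at 0.0977. In all 678 adult high cells Mmp13 stood at 0.416 of the level in the other cells, 66.2 against 159.2 per 10000, while in the 18 fetal ones it stood at 1382 against 106.0.

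Other genes, named here after their values were seen, stood further apart in those 245 adult cells. Car3 was 158.9-fold higher (155.0 to 162.9) and seen in 99.6% of them against 10.7% of the others. Dkk1 was 63.8-fold higher on 44 molecules against 21, Col22a1 30.2-fold and Sgms2 24.1-fold. Col22a1 was also 15.4-fold higher in the fetal high cells. Panx3, a channel protein of the pannexin family, was 8.12-fold higher in those fetal cells and 8.91-fold higher in the 678 adult high cells, but stood at 0.164 of the level of other cells in the 245. Ptprc stood at 0.0828 of the level of other cells in the adult group and at 0.00753 in the fetal one.

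**Figure D3:**
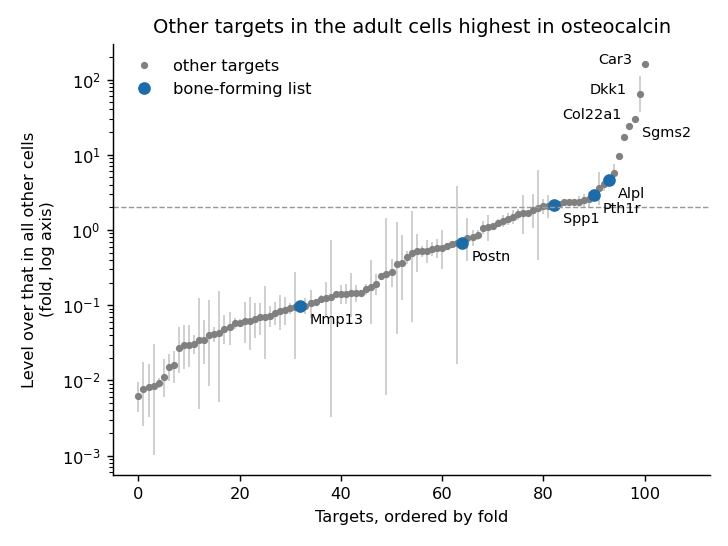
Level of each gene other than osteocalcin in the 245 adult cells with 1000 or more molecules of Bglap and Bglap2, divided by its level in all other adult cells, on a log axis and ordered by size, where vertical lines are 95% intervals for counting error and the dashed line marks 2-fold. Car3 is highest at 158.9-fold, and of the bone-forming list (blue) Alpl, Pth1r and Spp1 lie above the dashed line and Postn and Mmp13 below it (genes without a molecule in the 245 cells are not drawn).

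Over the 38 clusters of the 3 libraries with at least 20 cells, the genes whose level was most like that of Bglap and Bglap2 together were Pth1r (Pearson r = 0.77), Col2a1, the main collagen of cartilage (0.76), Car3 (0.72), Col22a1 (0.66) and Cp, ceruloplasmin (0.64). The measure is log2 of molecules per 10000 plus 1, and clusters of 1 library share its depth and any free RNA. Within the 17 adult clusters alone r was 0.65 for Pth1r, 0.86 for Car3 and 0.75 for Col22a1, but 0.44 for Col2a1 and 0.22 for Cp. The likeness of Col2a1 and Cp thus rested more on the differences between libraries.

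Bglap3 was found far more widely than its neighbours in Adult BM cells. It had a molecule in 7641 cells (96.2%), against 2031 (25.6%) for Bglap and 2211 (27.8%) for Bglap2. Of the 5135 adult cells with neither Bglap nor Bglap2, which held 26472 molecules of Bglap3, the median cell had 4. The fetal marrow did not show this, with 0.973% of cells for Bglap3 against 0.856% for Bglap.

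The departure was large in adult cells with Ptprc. The 1669 such cells held 7646 molecules of Bglap, 8462 of Bglap2 and 19957 of Bglap3, a ratio of Bglap3 to Bglap of 2.61 (2.54 to 2.68). In the 649 high cells without Ptprc the ratio was 1.27 (1.27 to 1.28). The first over the second gave 2.05 (1.999 to 2.11). For Bglap2 the same quotient was 1.02 (0.988 to 1.05). Of the osteocalcin in Ptprc cells, the 5 cells with the most held 72.7% of Bglap but 38.9% of Bglap3, and without them the quotient was 4.59.

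Most Ptprc cells were further apart than that. In the 1640 that were not high there were 355 molecules of Bglap, 416 of Bglap2 and 8950 of Bglap3, a Bglap3 ratio of 25.2 (22.7 to 28.1). Cells without Ptprc showed it too. The 5621 cells that were neither high nor had Ptprc gave 26.9 (25.6 to 28.2), an interval that overlaps the first. Their Bglap2 ratio was 1.24 (1.16 to 1.32), against 1.09 (1.08 to 1.09) in high cells without Ptprc. Cells that were not high were chosen for few molecules of Bglap, which by itself raises their Bglap3 ratio. The high cells, with which Ptprc cells were compared, were chosen for many, which by itself lowers theirs. Ptprc and the clusters did not use the 3 genes, but every quotient over high cells carries that choice. Among clusters the ratio ran from 1.23 in the cluster with nearly all osteocalcin to 129 in an endothelial-like cluster with a single molecule of Bglap, with a median of 8.45.

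Bglap3 and its neighbours had been corrected differently. DBEC left Bglap3 as RSEC had it in all 7646 of its adult barcodes and all 125 of its barcodes in E18.5 BM cells, so 100% of its RSEC molecules stayed. Of Bglap 51.7% stayed in Adult BM cells and 65.9% in E18.5 BM cells, and of Bglap2 54.3% and 68.5%. In E18.5 EC Bglap3 was corrected as the others were, with 46.5% kept. Bglap3 was 1 of 8 genes of 119 left unchanged in Adult BM cells, and the next of those 8 had 435 molecules. In E18.5 BM cells 9 genes of 120 were left unchanged. Bglap3, with 576 molecules, ranked 2 among those 9, below Ctsk with 2458. A kept entry of Bglap had at least 3 reads per molecule in Adult BM cells, while entries of Bglap3 with 1 were kept.

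In clusters with Ptprc in over 80% of cells, which were formed without the 3 genes, DBEC kept 4.52% of the adult RSEC molecules of Bglap and 100% of those of Bglap3. The molecules had been read 1.201 and 1.09 times each on average. The split into high and other cells rests on DBEC molecules of Bglap and Bglap2, so low kept shares outside high cells are in part fixed by that choice and are given as a description. DBEC kept 2.38% of the RSEC molecules of Bglap in Ptprc cells that were not high, and 2.26% in the other cells that were not high, against 56.7% in high cells without Ptprc. Molecules of Bglap there had been read 1.13, 1.12 and 4.65 times each on average. Bglap3 was kept at 100% in all 3 classes, although its molecules had been read only 1.07, 1.07 and 2.42 times.

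Counted before that step, the paralogs kept 1 ratio across most adult cells. By RSEC molecules Bglap was seen in 99.2% of adult barcodes, Bglap2 in 99.4% and Bglap3 in 96.2%. The RSEC ratio of Bglap3 to Bglap was 0.601 (0.585 to 0.617) in Ptprc cells that were not high and 0.607 (0.6002 to 0.615) in the other cells that were not high. It was 0.720 (0.718 to 0.723) in high cells without Ptprc, so with the cells kept as chosen by DBEC the quotient of Ptprc cells over high cells was 0.857 (0.842 to 0.872), below 1. With high cells chosen anew by RSEC molecules, which made 6320 cells high, it was 1.19 (1.18 to 1.2002), above 1. The direction by RSEC thus turned on how high cells were chosen, while both values were nearer to 1 than 2.05. By raw molecules the quotient was 0.988 (0.972 to 1.005) with cells as chosen by DBEC and 1.01 (1.001 to 1.02) with cells chosen anew, and 1.09 (1.07 to 1.12) for Ptprc cells that were not high. Over the 17 adult clusters the RSEC ratio ran from 0.563 to 0.727, with a median of 0.598.

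**Figure D4:**
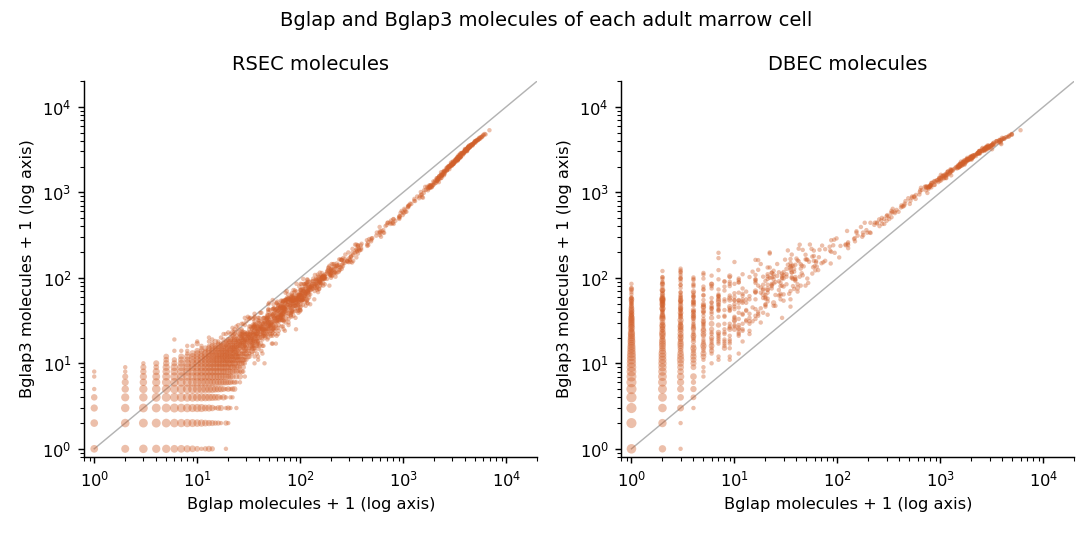
Bglap (x axis) and Bglap3 (y axis) molecules of every cell of the adult library, each plus 1 on log axes, by RSEC (left) and DBEC (right), where a larger point stands for more cells and the grey line marks equal counts. By RSEC most cells form 1 band just under the line. By DBEC the cells outside the upper group move left toward 0 for Bglap and keep their Bglap3.

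The clusters richest in Ptprc show the same. The haematopoietic-like cluster led by Hlf and Ptprc (943 cells, 91.7% with Ptprc) had 67.0 molecules of Bglap and 566.2 of Bglap3 per 10000, a ratio of 8.45 by DBEC and 0.588 by RSEC. The haematopoietic-like cluster led by Mmp9 and Ptprc (105 cells, 99.0% with Ptprc) had 8.30 and 0.563. An unnamed cluster led by genes of dividing cells, such as Top2a and Mki67 (689 cells, 83.0% with Ptprc), had 28.7 and 0.598.

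**Figure D5:**
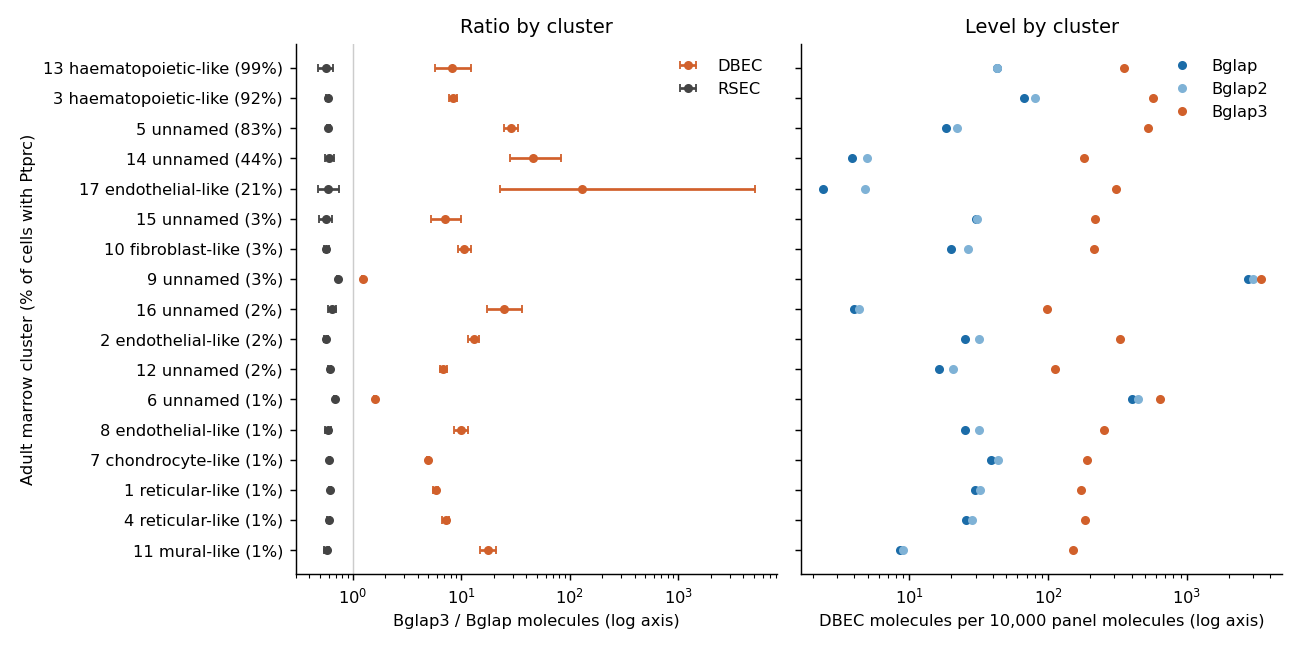
Adult clusters ordered by their share of cells with Ptprc (in brackets), with the ratio of Bglap3 to Bglap molecules by DBEC and RSEC and its 95% interval for counting error on a log axis (left) and the level of each gene per 10000 panel molecules on a log axis (right). The RSEC ratios lie between 0.563 and 0.727 in all 17 clusters and the DBEC ratios between 1.23 and 129, lowest in the cluster that holds 94.9% of Bglap.

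A low level of all 3 genes was thus present by RSEC in nearly every adult cell, whatever its cluster. Outside high cells the median cell of a cluster had 3 to 68 RSEC molecules of Bglap, with a median over clusters of 9 and the highest value in the chondrocyte-like cluster, whose cells had a median of 3935 molecules of other genes. With the cells that were not high split into 4 groups of nearly equal size by depth, the median cell had 4, 6, 8 and 15 RSEC molecules of Bglap, beside 66, 138, 305 and 674 molecules of other genes. The count thus rose less than the depth did. Cells with Ptprc that were not high had a median of 7 molecules of Bglap by RSEC, near the 8 of the other cells that were not high. A few RSEC molecules of Bglap in an adult cell were thus at the level of Ptprc cells, and whether they came from the cell or from free RNA was not tested.

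By DBEC a molecule of Bglap was found in 16.7% of Ptprc cells that were not high and in 19.2% of the other cells that were not high, at median depths of 95 and 290 molecules. At an equal depth of 50 molecules per cell, drawn at random, the shares were 8.08% and 4.19%. For Bglap3 they were 96.8% and 95.6%, and 86.0% and 58.5% after thinning. That draw left out 80 and 114 cells below this depth. At equal depth both genes were therefore found less often in the cells without Ptprc. A draw of 50 is a smaller part of a deeper cell, so these shares are relative to all molecules of the cell. They do not give the amount per cell. The median count of Bglap3 per cell was 4 in the Ptprc cells and 5 in the others.

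In E18.5 BM cells the departure was smaller, and over all Ptprc cells its interval included 1. The 10495 Ptprc cells held 144 molecules of Bglap, 153 of Bglap2 and 140 of Bglap3, a Bglap3 ratio of 0.972 (0.765 to 1.24) against 0.744 (0.650 to 0.850) in the 15 high cells without Ptprc, and the quotient was 1.31 (0.991 to 1.72). Of Bglap in these Ptprc cells 61.1% was in 5 cells, and 3 high cells carried Ptprc. By RSEC in the same cells the quotient was 0.803 (0.629 to 1.02), and with cells chosen anew 0.897 (0.617 to 1.31), so neither interval excluded 1. Without the high cells among them, and with cells as chosen by DBEC, the quotients were 1.69 (1.16 to 2.47) by DBEC and 0.678 (0.5005 to 0.912) by RSEC. A fetal Ptprc cell that was not high had a molecule of Bglap in 0.543% of cases and of Bglap3 in 0.705%. In E18.5 EC, where Bglap3 was corrected as its neighbours were, the 1024 Ptprc cells held 10, 10 and 5 molecules and the 3013 cells that were neither high nor had Ptprc held 22, 24 and 15, ratios of 0.5 (0.134 to 1.61) and 0.682 (0.329 to 1.38) that overlap widely.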

How the data were processed

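The libraries were made with a custom BD Rhapsody panel, in which transcripts are tagged with molecular identifiers in microwells and chosen amplicons are amplified. The file headers name the BD Targeted Rhapsody Analysis Pipeline 1.8, where the methods give an earlier release. The counts deposited by the authors are whole reads and molecules per cell barcode and amplicon, raw, after RSEC and after DBEC, with no normalization. Amplicons of a gene were summed. Cells with at least 20 DBEC molecules and 5 genes were kept, doublets were not removed, and Python 3.11.15 with scipy 1.17.1 was used. Clusters came from all genes but the 3 osteocalcin genes (11 principal components, 20 neighbours, Leiden resolution 0.5, seed 1, igraph 0.11.9). A cluster was named only where fixed markers led it, and 1 adult cluster with osteoclast markers stayed unnamed because few of its cells had Ptprc. With 1 library per group no test across samples was possible. Intervals are Poisson or binomial and cover counting error only. Molecules clump in few cells and may be shared between paralogs, so they do not describe spread between cells. Genes named are the 3 members, a bone-forming list, Ptprc, cluster markers and the 5 genes most like osteocalcin over clusters. Members and lists were chosen with earlier results of these data known. The interval and fold calculations were tested on simulated data. The values of 1 further gene are not reported here.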

Additional observations from a re-analysis of the deposited data

How the results depend on the processing

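No paired analysis was possible because each group is 1 library. Of 175 recomputed values, 114 moved by less than their counting interval or 1.5 times, 60 moved further and 1 reversed. Leaving the filter on cells out, or raising it to 50 molecules, moved none. The count used moved most. By RSEC and then raw molecules per 10000, Bglap was 977.6 and 1139, Bglap2 1011 and 1199 and Bglap3 693.0 and 625.2 in Adult BM cells, and in E18.5 BM cells Bglap2 was 3.804 and 3.11 and Bglap3 1.97 and 1.36, with Bglap at 3.02 by raw molecules. In E18.5 EC the raw values were 0.451, 0.407 and 0.221. The Bglap3 ratio was 0.522 and 0.452 in E18.5 BM cells and 0.709 and 0.549 in Adult BM cells, and the adult Bglap2 ratio 1.03 and 1.05. Adult high cells numbered 6320 and 6329 and held 99.5% and 99.7% of osteocalcin, and fetal ones held 74.2% and 77.8%. The leading cluster held 85.9% and 92.7% of adult Bglap and 74.5% and 76.9% of fetal. With cells chosen again by each count, the Bglap3 quotient of Ptprc over high cells was 1.19 and 1.01 (Adult) and 0.897 and 0.949 (E18.5), and by RSEC the adult Bglap2 quotient was 0.979. With cells as reported, a setting added after seeing the data, RSEC gave 0.857 (Adult, the reversal) and 0.803 (E18.5) for Bglap3, and shares in high cells of 91.4% and 71.9%. DBEC leaving Bglap3 unchanged is part of how these counts differ. With high cells from 5 molecules, fetal marrow had 29, and the shares were 97.2% (Adult) and 85.9% (E18.5). At 30 there were 0 in the EC library and 9 in fetal marrow, and the shares were 96.1% and 70.2%. At 5% of a cell's molecules there were 3 (E18.5 EC) and 428 (Adult), the shares were 94.7% and 59.5%, and the adult Bglap3 quotient was 2.11. It was 2.23 with at least 2 Ptprc molecules, 10.3 by Ptprc clusters, 19.3 without cells of 10 or more molecules of a gene and 4.59 without the top 5 cells. The Bglap2 quotient was 1.09, 1.08 and 1.07 in the last 3. For E18.5 BM cells the Bglap3 quotient was 1.78 by clusters and 1.75 without the top 5 cells. With 20 principal components the leading adult cluster held 97.0%. In E18.5 EC, 1 high cell left no quotient to compute. The number of fetal molecules limits every fetal ratio.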
